A study of Mus musculus with 8 samples.

Results

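Ccl21a, H2-Q8 and Bcl2a1b are immune genes of the mouse that were followed across 8 liver arrays. A probe belonged to the set when the RefSeq accession printed for it in the scanner files, with its version dropped, was that of one of these genes. This gave 1 probe per gene, 394453 for Ccl21a, 712519 for H2-Q8 and 789504 for Bcl2a1b, so 3 of the 33012 gene probes on the array. All 3 were among the 16728 tested probes, those whose signal reached 3 times the noise on 2 arrays or more. The genes were chosen by their measured levels in knockout against wild type on these arrays. Differences from wild type are therefore given as a description with no test. Differences from untreated knockout share its arrays with that choice, which can favour a fall from the knockout level.

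Total RNA came from livers of male FVB/N mice aged 3 months. The 4 groups, with 2 arrays each, were untreated wild type (WT), untreated Abcb4 knockout (KO), Abcb4 knockout given norUDCA for 3 days, and Abcb4 knockout given norUDCA for 4 weeks. Abcb4 is the transporter that moves phospholipid from the hepatocyte into bile, and norUDCA is a bile acid with a shortened side chain. The labels give no dose, no treated wild type, and no description of how the Abcb4 allele was made. File names of the 4 weeks arrays give 14 days instead, and the labels were followed here. No named probe measured Abcb4, so the genotype was not checked on these arrays. Only the titles separate the replicates of a group, so whether the spread behind the p-values is between animals or technical is not known.

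Bile without phospholipid is toxic to the bile duct lining, and knockouts of Abcb4 develop inflammation and fibrosis around the portal tracts. Ccl21a encodes a chemokine of lymphatic vessels and lymphoid tissue that draws cells bearing the receptor Ccr7, chiefly naive T cells and mature dendritic cells. H2-Q8 belongs to the Qa region of the mouse major histocompatibility complex and encodes a class I-like heavy chain, the kind of protein that displays peptides on the surface of nucleated cells and rises under interferon. Bcl2a1b encodes an A1 protein, a Bcl2 relative that keeps activated leukocytes alive and is switched on by NF-kappaB.

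The windows upstream of these genes are shown because all 3 genes belong to families of copies, some of them nearly identical upstream. These windows lie before the annotated start, so their likeness does not show what a single probe can separate. Each holds the 250 bases before the annotated start, written 5′ to 3′ on the strand of the gene, from RefSeq on GRCm38.p6. Capitals mark matches to 4 motifs searched on both strands: a kappaB-like motif (GGGA, any 4 bases, then CC), an interferon regulatory factor (IRF) half-site pair GAANNGAAA, the CCAAT box CCAAT and the TATA box TATAAA. The motifs were chosen after the sequences had been seen. H2-Q8 had no entry in this table, and its neighbour H2-Q7, which had a named probe, is shown.
Ccl21a (minus strand, chr4:42773992-42774241): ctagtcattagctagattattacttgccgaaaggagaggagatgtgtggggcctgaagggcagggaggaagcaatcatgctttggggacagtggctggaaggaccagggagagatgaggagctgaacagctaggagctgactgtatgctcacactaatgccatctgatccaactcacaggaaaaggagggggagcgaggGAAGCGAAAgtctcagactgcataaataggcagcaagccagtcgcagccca
Bcl2a1b (plus strand, chr9:89199023-89199272): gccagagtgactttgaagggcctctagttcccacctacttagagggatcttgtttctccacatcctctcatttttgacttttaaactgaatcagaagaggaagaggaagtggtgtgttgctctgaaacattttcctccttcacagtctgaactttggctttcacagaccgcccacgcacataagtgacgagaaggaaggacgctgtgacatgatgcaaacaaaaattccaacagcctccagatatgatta
H2-Q7 (plus strand, chr17:35438905-35439154): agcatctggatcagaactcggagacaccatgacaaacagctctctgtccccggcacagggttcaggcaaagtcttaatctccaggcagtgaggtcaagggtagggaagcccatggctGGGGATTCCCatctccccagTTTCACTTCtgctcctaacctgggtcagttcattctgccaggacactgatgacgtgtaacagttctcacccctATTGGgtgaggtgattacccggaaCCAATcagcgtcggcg

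The Ccl21a window held 1 match, GAAGCGAAA, from 51 to 43 bases before the start. That IRF motif occurred in 6.31% of 32851 mouse windows of the same length. Over 249 aligned bases the Ccl21a window differed from that of its copy Ccl21d (plus strand, chr4:41903363-41903612) at 1 base, an identity of 99.6%. The Bcl2a1b window held no match to any of the 4 motifs. Over 206 aligned bases it differed from the Bcl2a1a window (plus strand, chr9:88956670-88956919) at 1 base, an identity of 99.5%. Aligned without gaps, the Bcl2a1b and Bcl2a1d windows were 67.0% identical over 206 bases, and those of H2-Q6 and H2-Q7 71.6% over 211 bases. In both pairs a short insertion or deletion puts the bases on the far side of it out of register. These percentages therefore understate how alike the copies are. The H2-Q7 window held 1 kappaB match and 1 IRF match, both on the opposite strand, and a CCAAT match on each strand. No motif match overlapped another in the windows shown. The kappaB motif occurred in 17.6% of all windows, the CCAAT box in 33.8% and the TATA box in 12.4%. A match describes letters in the window and no binding was measured. Probe sequences were not used here, so RNA of the named gene and RNA of its close copies (Ccl21b and Ccl21d, the other H2-Q genes, the other Bcl2a1 genes) cannot be told apart at a probe.

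All 3 genes were higher on both KO arrays than on both WT arrays, as were 28.5% of all tested probes. All 3 were lower on both 3 days arrays than on both KO arrays, as were 28.0% of all tested probes. At 4 weeks their positions against KO were not alike, though no test compared the genes with each other. The Ccl21a levels ran from below those at 3 days up into the KO range, and H2-Q8 lay just under KO. Bcl2a1b lay within the KO range after quantile normalization, though above both KO arrays in the unnormalized signal. None of the 3 passed the limma test in any comparison between KO, 3 days and 4 weeks. Levels below are log2 of the deposited signal after quantile normalization between arrays, and a probe is called detected on an array where its signal over noise was 3 or more.

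**Figure D1:**
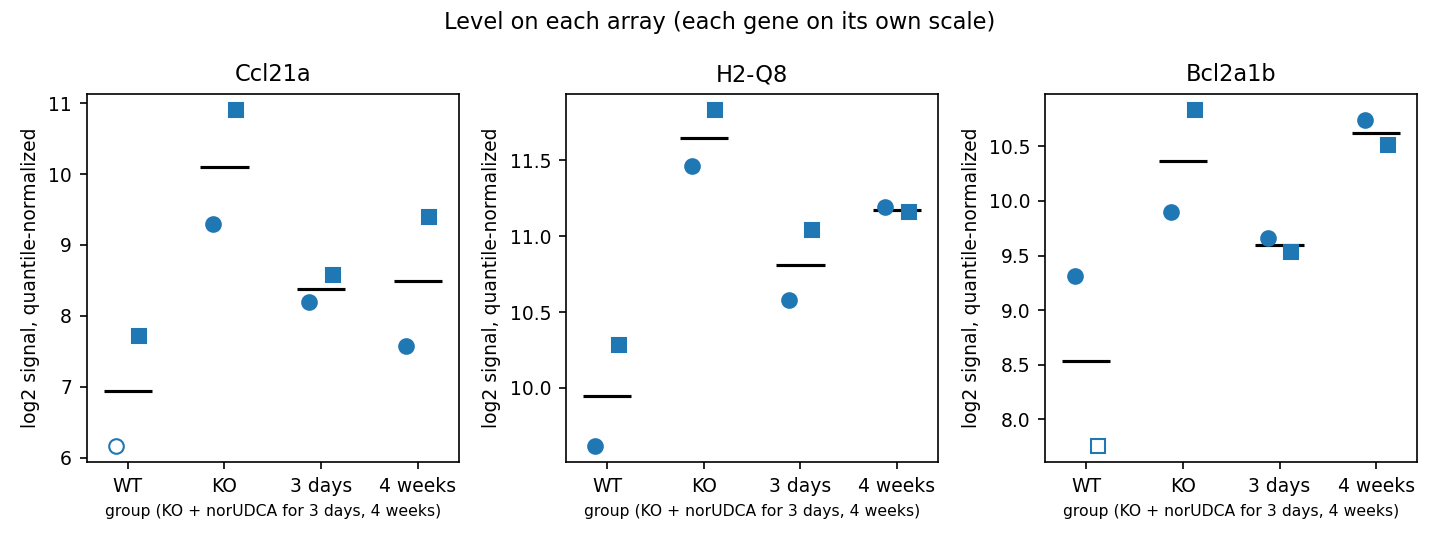
Level of each gene on each of the 8 arrays (circles replicate 1, squares replicate 2; log2 quantile-normalized signal, with a separate vertical scale per gene) by group, with the group mean as a bar and open points for arrays where the probe was not detected. Both KO points lie above both WT points for all 3 genes, and the 4 weeks points lie in the KO range for Bcl2a1b (10.74 and 10.51 against 9.90 and 10.83).

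Technical differences between the groups run alongside these results. The share of gene probes detected was 33.3% and 41.4% in WT and between 40.9% and 47.9% in the other groups. Positive control spots, 129 per array, had a median signal of 1691.1 and 2061.8 in WT and between 6104.3 and 7913.4 elsewhere. WT arrays were thus dimmer in spots that should not depend on the liver, and the part this plays in the differences from WT was not tested. Differences among KO, 3 days and 4 weeks involve the WT arrays only through the quantile normalization, the detection filter and the shared estimate of the spread. Leaving out WT replicate 1 moved Ccl21a in 3 days minus KO from -1.71 to -1.76. That shift concerns the estimate alone, not the spread behind the p-values. In bulk tissue, fewer cells of a type and less RNA per cell cannot be told apart.

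Ccl21a, the chemokine, had the widest range of the set. Its level was 6.17 and 7.72 on the WT arrays, 9.30 and 10.90 on the KO arrays, 8.19 and 8.58 at 3 days, and 7.58 and 9.40 at 4 weeks. Both WT arrays were lower than every KO and 3 days array, KO held the highest value, and the 4 weeks arrays overlapped all the other 3 groups in range. The unnormalized signal was 75.6 and 150.58 in WT, 875.01 and 1935.34 in KO, 326.53 and 362.78 at 3 days, and 255.52 and 966.13 at 4 weeks. On WT replicate 1 the probe was not detected, with signal over noise of 0.08, and the listed signal there is the noise of the spot. It was detected on the other 7 arrays, with signal over noise from 4.54 to 36.97.

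The Ccl21a group means were 6.94 ± 1.09 in WT, 8.39 ± 0.28 at 3 days and 8.49 ± 1.28 at 4 weeks (log2, SD, n = 2), and KO had the highest mean with an SD of 1.13. Arrays of 1 group lay 2.92-fold apart in WT, 3.03-fold in KO and 3.52-fold at 4 weeks, but 1.31-fold at 3 days. In order of the means the groups ran WT, 3 days, 4 weeks and KO, and 4 weeks overlapped both of its neighbours. KO minus WT was 3.15 ± 0.86 (log2, SE), which is 8.90-fold. With 1 of the 2 WT arrays not detecting Ccl21a, that fold rests partly on a noise value. Leaving out that array, WT replicate 1, gave 2.47, while leaving out WT replicate 2 gave 3.97.

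After 3 days of norUDCA, Ccl21a was 1.71 ± 0.86 lower than in KO on the log2 scale, or 3.28-fold, and this did not pass the test (limma, Benjamini-Hochberg adjusted p = 0.40). The nearest arrays of the 2 groups were 0.71 apart. The difference was -0.91 without KO replicate 2 and -2.50 without KO replicate 1, so its size varied with the KO array used. At 4 weeks the difference from KO was -1.61 ± 0.86, with overlapping arrays (limma adjusted p = 0.66). It was -0.70 without 4 weeks replicate 1 and -2.48 without 4 weeks replicate 2. The 4 weeks and 3 days means differed by 0.10 ± 0.86 (limma adjusted p = 0.99), a value that turned to -0.78 when 4 weeks replicate 2 was left out and to -0.08 when 3 days replicate 1 was left out. KO arrays enter both treatment comparisons and KO minus WT, so those differences are not independent of each other.

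Other probes of the lymphoid chemokine list bear on how far Ccl21a speaks for its family. The list held 25 genes, of which Ccl19, Ccl21a and Ccl21b had named probes, 4 in all. Ccl21b is a gene copy that encodes a nearly identical chemokine. Its probe 773714 read 5.89 and 9.0 in WT, 9.76 and 11.37 in KO, 7.37 and 7.71 at 3 days, and 7.90 and 9.80 at 4 weeks. That probe was detected on 1 WT array, both KO arrays, both 3 days arrays and 1 array at 4 weeks. The other Ccl21b probe, 592258, was detected on neither WT array, both KO arrays and 1 array each at 3 days and 4 weeks, and read 9.41 and 11.12 in KO, 8.67 and 8.32 at 3 days, and 7.41 and 9.50 at 4 weeks. Both Ccl21b probes were thus highest on KO replicate 2 and lower at 3 days than in KO, as Ccl21a was.

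For probe 773714, Ccl21b at 3 days minus KO was -3.02 ± 1.17 (limma adjusted p = 0.29), and for probe 592258 it was -1.76 ± 0.84 (limma adjusted p = 0.38). Ccl19, which encodes the other ligand of Ccr7, was detected on all 8 arrays. It read 8.75 and 8.91 in WT, 8.78 and 8.90 in KO, 8.31 and 8.17 at 3 days, and 8.45 and 8.56 at 4 weeks. WT and KO overlapped for Ccl19, with KO minus WT at 0.01 ± 0.18, while both treated groups lay below KO. Neither Ccl19 difference passed the test: -0.60 ± 0.18 at 3 days (limma adjusted p = 0.22) and -0.33 ± 0.18 at 4 weeks (limma adjusted p = 0.68). The 4 probes had a median of 3.14 for KO minus WT and -1.74 for 3 days minus KO, against 0.09 and -0.03 over all tested probes, and 0 of 4 passed the test in the comparisons among KO, 3 days and 4 weeks. The 4 include Ccl21a, which was chosen by its level in KO against WT, so these medians are no independent support. Ccl19, the only gene of the 4 probes that is not a Ccl21 copy, stood at 0.01 in KO minus WT. Of the 4 probes 3 measure close Ccl21 copies. Each of these 3 was undetected on at least 1 WT array, so the first of these medians rests partly on undetected WT spots.

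H2-Q8, the class I-like gene, had its lowest values in WT and its highest in KO, with little spread between arrays of a group. Its level was 9.62 and 10.28 in WT, 11.46 and 11.83 in KO, 10.58 and 11.04 at 3 days, and 11.19 and 11.16 at 4 weeks. No pair of groups overlapped in H2-Q8, and the probe was detected on all 8 arrays with signal over noise from 5.64 to 58.91. In the unnormalized signal the WT arrays read 327.59 and 847.84, KO 3915.12 and 3644.22, 3 days 1782.76 and 2049.98, and 4 weeks 3630.29 and 3309.53. The WT arrays lay well under all others here, but they were dimmer over the gene probes as a whole. The 75th percentile of signal was 396.8 and 643.8 in WT and between 945.3 and 1511.9 elsewhere. The unnormalized signal therefore adds no separate support for a lower level in WT.

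The H2-Q8 means were 9.95 ± 0.47 in WT, 10.81 ± 0.33 at 3 days, 11.18 ± 0.03 at 4 weeks and 11.64 ± 0.26 in KO (log2, SD, n = 2), and the order held with gaps of 0.12 or more between all neighbours. KO minus WT was 1.69 ± 0.31, or 3.23-fold, and median scaling in place of quantile normalization gave 2.21. That scaling moved the median of all tested probes from 0.09 to 0.48 in the same comparison. At 3 days H2-Q8 was 0.84 ± 0.31 lower than in KO, or 1.79-fold, and this did not pass the test (limma adjusted p = 0.27). At 4 weeks it was 0.47 ± 0.31 below KO (limma adjusted p = 0.75), and 4 weeks minus 3 days was 0.37 ± 0.31 (limma adjusted p = 0.81). Neither passed the test. The former was -0.28 without KO replicate 2, -0.65 without KO replicate 1 and -0.30 with median scaling, and the latter was 0.14 without 3 days replicate 1 and 0.60 without 3 days replicate 2. In 3 days minus KO, H2-Q8 was among the 16.1% of tested probes with an unadjusted limma p under 0.05. The KO levels took part in choosing the gene, so that p is no independent test.

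H2-Q7, a neighbour in the Qa region whose probe also belonged to the class I list, read 16.54 and 16.66 in WT, 18.21 and 17.52 in KO, 17.42 and 17.35 at 3 days, and 18.00 and 17.82 at 4 weeks. Like H2-Q8 it was lowest in WT and lower at 3 days than in KO on every array, while its 4 weeks arrays lay within the KO range. H2-Q7 at 3 days was 0.49 ± 0.27 lower than in KO (limma adjusted p = 0.45), and 4 weeks minus KO was 0.05 ± 0.27 (limma adjusted p = 0.98). H2-Q7 and H2-Q8 were the only 2 named probes among the 55 genes of the class I list, and 0 of 2 passed in the comparisons among KO, 3 days and 4 weeks. Their median was 1.48 for KO minus WT, -0.66 for 3 days minus KO, -0.21 for 4 weeks minus KO and 0.45 for 4 weeks minus 3 days. H2-Q8 was chosen by its level in KO against WT, so the medians that involve KO are no independent support. Members of the peptide loading machinery and beta-2-microglobulin had no named probe here.

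Bcl2a1b, the survival gene, had its highest mean at 4 weeks, while both others had theirs in KO. No test compared the genes with each other. It read 9.31 and 7.76 in WT, 9.90 and 10.83 in KO, 9.66 and 9.53 at 3 days, and 10.74 and 10.51 at 4 weeks. The 3 days arrays lay just under KO replicate 1, and the 4 weeks arrays lay between the KO arrays on this scale. The unnormalized signal was 276.9 and 154.27 in WT, 1329.96 and 1840.81 in KO, 957.48 and 715.15 at 3 days, and 2660.39 and 2124.87 at 4 weeks. In that signal both 4 weeks arrays were above both KO arrays, as they were in the assay-normalized signal of the authors (19.23 and 16.75 against 10.14 and 14.82). WT replicate 2 did not detect Bcl2a1b, with signal over noise of 1.34, so its fold from WT also rests partly on a spot near the noise.

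The Bcl2a1b means were 8.54 ± 1.09 in WT, 9.59 ± 0.10 at 3 days, 10.36 ± 0.66 in KO and 10.63 ± 0.16 at 4 weeks (log2, SD, n = 2), and KO and 4 weeks overlapped. KO minus WT was 1.83 ± 0.55, or 3.55-fold. It was 1.05 without WT replicate 2 and 2.70 without WT replicate 1. At 3 days Bcl2a1b was 0.77 ± 0.55 lower than in KO (limma adjusted p = 0.56), a difference of -0.31 without KO replicate 2 and -1.23 without KO replicate 1. Against KO the 4 weeks group was 0.26 ± 0.55 higher (limma adjusted p = 0.94), turning to -0.20 without KO replicate 1 and growing to 0.73 without KO replicate 2 and to 0.43 with median scaling. Set against 3 days it was 1.03 ± 0.55 higher, or 2.05-fold, and the lowest 4 weeks array was 0.85 above the highest 3 days array (limma adjusted p = 0.65).

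**Figure D2:**
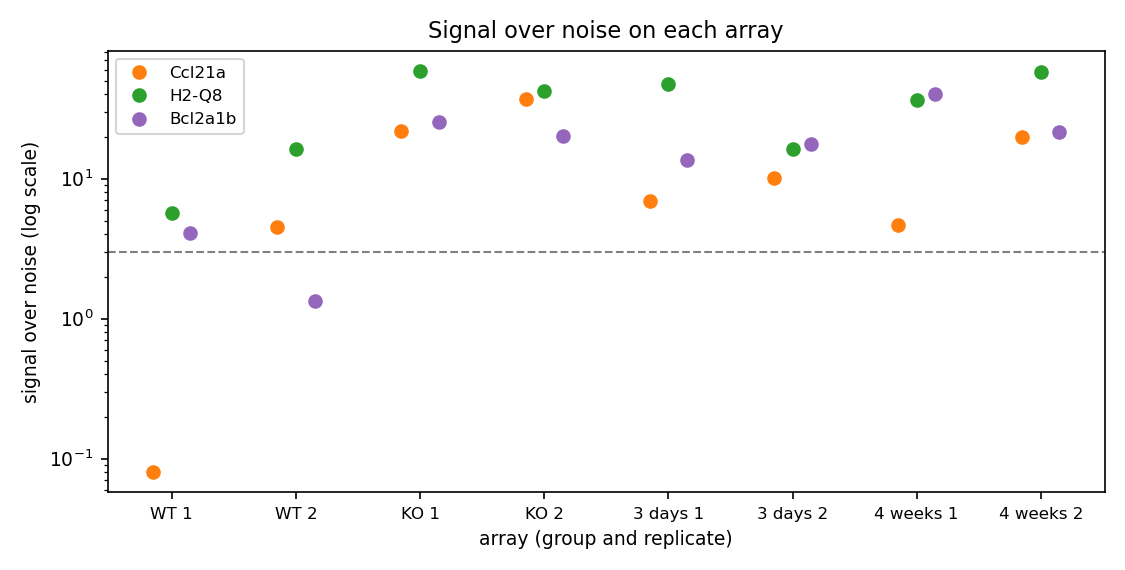
Signal over noise of the 3 genes on each array (points, logarithmic axis), with the detection limit of 3 as a line. Only Ccl21a on WT replicate 1, at 0.08, and Bcl2a1b on WT replicate 2, at 1.34, lie under the limit.

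Set beside all tested probes, the 3 genes behaved as follows. KO minus WT gave 189 probes past an adjusted p of 0.05, which is 1.13% of 16728, 136 higher and 53 lower (251 and 52 with median scaling). The count was 1080 without WT replicate 2 and 1 without KO replicate 1 or KO replicate 2. That comparison chose the genes, and nothing is read from their place in it.

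For 3 days minus KO, 0.233% of tested probes passed (39 probes, and 0 when any array of KO, 3 days or 4 weeks was left out), and 0 of the 3 genes did. The percentage of tested probes with a more negative difference was 1.35% for Ccl21a, 8.93% for H2-Q8 and 10.3% for Bcl2a1b. The KO arrays are shared with the comparison that chose the genes. That choice can favour a fall from KO, so nothing is read from these percentages.

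For 4 weeks minus KO, 0.0478% of tested probes passed (8 probes, 5 higher and 3 lower), again with 0 of the 3 genes. H2-Q8 was the 1 gene of 3 with both 4 weeks arrays under both KO arrays, against 21.6% of all tested probes. For 4 weeks minus 3 days, which uses neither the WT nor the KO levels, 0.0% of tested probes passed (0 of 16728 with limma, and 1499, or 8.96%, at an unadjusted p under 0.05; 11 passed with median scaling). Both 4 weeks arrays were above both 3 days arrays for H2-Q8 and Bcl2a1b, so 2 of 3 genes, against 25.3% of all tested probes.

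Compared with WT and with no test, the treated groups lay higher for each gene. The 3 days arrays were all above the WT arrays in 3 of 3 genes (30.7% of all tested probes), by 1.44 ± 0.86 for Ccl21a, 0.85 ± 0.31 for H2-Q8 and 1.06 ± 0.55 for Bcl2a1b. The 4 weeks arrays were all above WT for 2 of 3 genes (30.9% of all tested probes), by 1.22 ± 0.31 for H2-Q8 and 2.09 ± 0.55 for Bcl2a1b. Ccl21a at 4 weeks was 1.55 ± 0.86 higher by mean, and its lower array (7.58) lay under WT replicate 2 (7.72). These differences varied with the WT array used: 3 days minus WT was 0.71 without WT replicate 1 and 2.26 without WT replicate 2 for Ccl21a, and 1.92 and 0.28 for Bcl2a1b. For H2-Q8 3 days minus WT was 0.52 without WT replicate 1. Ccl21a in 4 weeks minus WT was 0.62 without 4 weeks replicate 2 and 2.41 without 4 weeks replicate 1, and 0.81 and 2.35 without WT replicate 1 and WT replicate 2. With cyclic loess Ccl21a was 0.72 and 0.75 above WT at 3 days and 4 weeks, and with median scaling Bcl2a1b at 3 days was 1.59 above WT. For Bcl2a1b 4 weeks minus WT was 2.96 without WT replicate 1 and 1.31 without WT replicate 2.

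**Figure D3:**
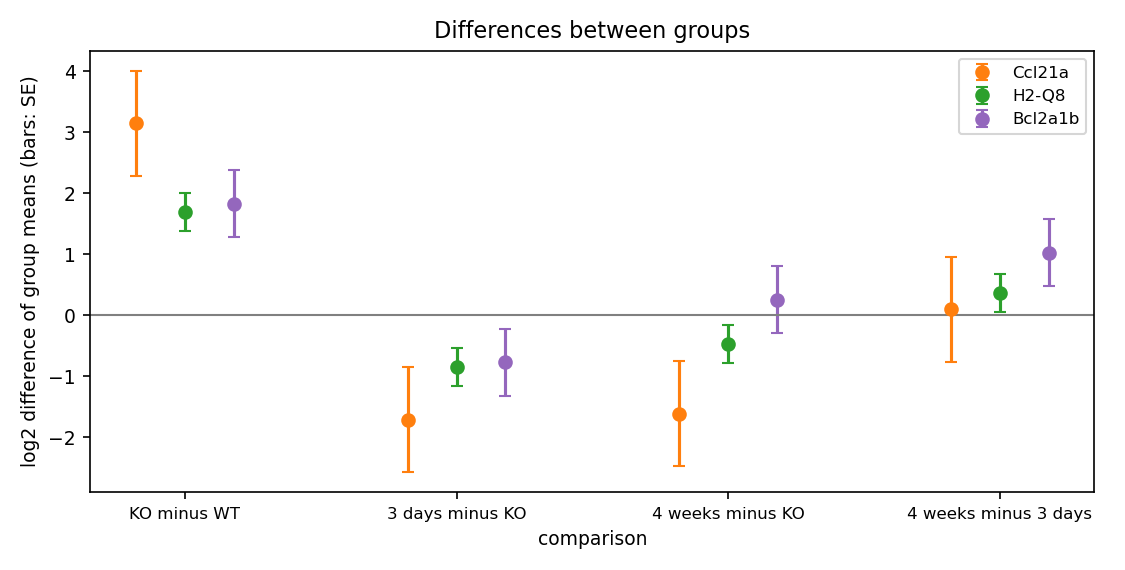
Difference between group means on the log2 scale (points) with its standard error (bars) for each gene and comparison, with 0 as a line. Ccl21a has the widest bars (SE 0.86), and for 4 weeks minus KO the points run from -1.61 for Ccl21a to 0.26 for Bcl2a1b.

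The label of the set names immune infiltration, and what the arrays measure of immune cell types bears on it. The T and NK cell list (44 genes) and the macrophage and dendritic cell list (61 genes) had no named probe. The named probes of the B and plasma cell list, Tnfrsf13b, and of the neutrophil and mast cell list, Ear1, were detected on 0 of 8 arrays. The cell type marker lists thus give no detected leukocyte marker against which the set could be checked. Lst1, a leukocyte transcript outside those lists that was picked after its values were seen, was detected on 7 arrays. Its level over the 8 arrays ran from 9.03, at 3 days, to 10.61, in WT. The KO arrays, at 9.55 and 10.45, overlapped WT, and the mean of Lst1 was lower in KO, at -0.35 ± 0.35 against WT. Lst1 does not stand for the further immune genes it was picked from, described at the end. Of the 13 tested there, 8 were higher and 5 lower in KO minus WT, with a median of 0.24. Of 489 genes in 11 immune lists, 10 had a named probe, and 7 of those were not in the set.

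Of the other immune genes with a tested named probe, Ifi202b, an interferon-inducible gene, read 9.90 and 9.45 in WT, 9.47 and 10.15 in KO, 8.90 and 8.83 at 3 days, and 9.03 and 9.21 at 4 weeks. Its WT and KO arrays overlapped, and at 3 days it was 0.94 ± 0.29 lower than in KO (limma adjusted p = 0.22). Tlr7, a receptor for single-stranded RNA, was not detected on either WT array and was detected on 1 of 2 KO arrays. Both its KO arrays lay above both WT arrays, as did those of 28.5% of all tested probes. Its KO minus WT difference was 1.81 ± 0.66 and rests on those undetected spots. Its 3 days arrays overlapped KO, with a difference of -0.20 ± 0.66 (limma adjusted p = 0.92).

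Some markers of other liver cells also differed between the groups, and not all in the direction of the set. Summed quantile-normalized signal of the 2 cholangiocyte markers with a named probe, Krt23 and Wfdc2 of a list of 23 genes, ran from 190.9 to 219.7 in WT, 2067 to 3234 in KO, 847.6 to 2090 at 3 days and 1461 to 1573 at 4 weeks. WT had the least of these markers, with neither probe detected on either WT array, and KO overlapped 3 days. At 4 weeks the 2 markers went opposite ways from KO, with Krt23 at -3.24 ± 0.55 (limma adjusted p = 0.18) and both arrays below KO, and Wfdc2 at 0.68 ± 0.44 (limma adjusted p = 0.74) and both arrays above KO. Their part in the differences of the set was not tested. The 4 hepatocyte markers of 45 with a named probe summed to 1198000 to 1770000 in WT, 1173000 to 1510000 in KO, 1320000 to 1712000 at 3 days and 933000 to 1168000 at 4 weeks, and Mup1, a secreted protein of hepatocytes, was detected on all 8 arrays. Mup1 makes up most of that sum, and the other 3 lay below KO on both arrays at 3 days and at 4 weeks. G6pc, the enzyme that releases free glucose, was -1.12 ± 0.36 at 3 days and -1.16 ± 0.36 at 4 weeks (limma adjusted p = 0.23 and 0.45). Dio1 was -2.49 ± 0.29 and -2.55 ± 0.29 (limma adjusted p = 0.053 and 0.091). Hsd3b4, a steroid dehydrogenase, read 14.28 and 11.23 in KO and 6.01 and 8.67 at 3 days, where 1 array detected it, and was detected on neither 4 weeks array. The median of the 4 hepatocyte markers was -1.80 at 3 days and -1.86 at 4 weeks against KO, and 0 of 4 passed in either comparison. The part of hepatocyte RNA in the differences of the set was not tested. Of all the listed genes outside the set, only Krt23, a bile duct keratin, and Dio1, a hepatocyte deiodinase, passed a limma test, both in KO minus WT. Krt23 was higher (limma adjusted p = 0.035) and Dio1 was lower by log2 -2.14 ± 0.29 (limma adjusted p = 0.039). The lists were chosen with earlier results of these data known, so these p-values are no independent test. Of all tested probes 189 passed in KO minus WT, and 0 when only the groups compared were fitted. The endothelial and stellate cell lists had no named probe, so those cell types were not measured.

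The profiles most like each gene over the 8 arrays were ranked among the 157 other named tested probes by the root mean square difference of log2 levels, each centred on its own mean. For Ccl21a the nearest was Ccl21b probe 592258 at 0.30, then Ccl21b probe 773714 at 0.68 and H2-Q8 at 0.81, against a median of 1.33. Over all tested probes, named or not, 0 came closer to Ccl21a than Ccl21b probe 592258, while 24 came closer than probe 773714 and 89 closer than H2-Q8. For H2-Q8 the nearest were Ikbip at 0.26, H2-Q7 at 0.38 and Zfp979 at 0.39, against a median of 0.76. Over all tested probes 18 came closer to H2-Q8 than Ikbip, 202 closer than H2-Q7 and 241 closer than Zfp979. Ikbip read 8.38 and 8.90 in WT, 9.49 and 9.81 in KO, 8.85 and 9.18 at 3 days, and 9.32 and 9.58 at 4 weeks.

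For Bcl2a1b the nearest were Ramp3 at 0.42, Lgals1 at 0.42 and Zfp979 at 0.45, against a median of 1.00. Over all tested probes 21 came closer to Bcl2a1b than Ramp3, 22 closer than Lgals1 and 34 closer than Zfp979. Lgals1, which encodes galectin-1, read 11.99 and 9.79 in WT, 12.80 and 13.66 in KO, 12.46 and 12.53 at 3 days, and 13.27 and 12.26 at 4 weeks. Within the set, Bcl2a1b ranked 22 from Ccl21a (1.17) and 55 from H2-Q8 (0.68), so for both genes other named probes lay nearer. Read the other way, Ccl21a ranked 91 from H2-Q8 (0.81) and 118 from Bcl2a1b (1.17), both beyond the medians, and H2-Q8 ranked 13 from Bcl2a1b (0.68). The likeness partly reflects the size of each gene's own range and the 8 arrays that all profiles share.

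**Figure D4:**
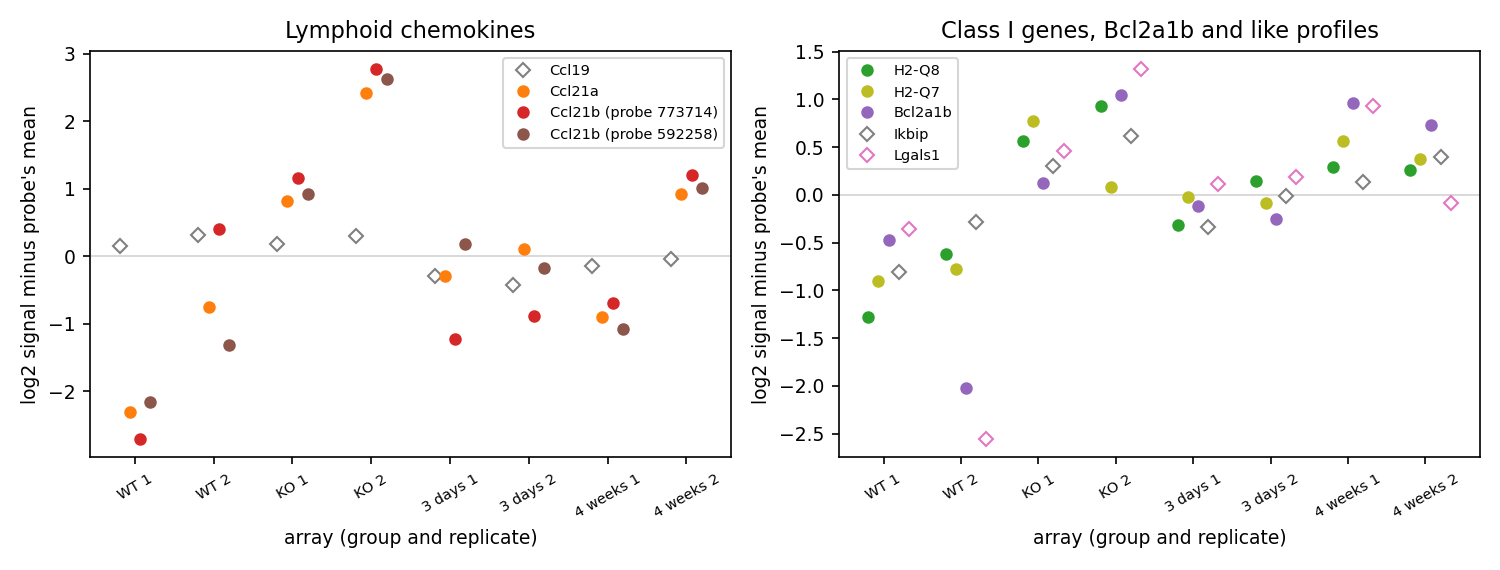
Level of each probe on each array minus its own mean over the 8 arrays (log2), for the lymphoid chemokines (left) and for the class I genes, Bcl2a1b and 2 like profiles (right), with a marker per array. The 3 Ccl21 probes all have their highest value on KO replicate 2, while Ccl19 stays between 8.17 and 8.91 on all arrays.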

How the data were processed

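Liver RNA of 8 samples was read on single-colour Applied Biosystems arrays with a chemiluminescent label, per the labels' protocols. The scanner files deposited by the authors hold a signal per spot, a linear intensity with background already removed, and its signal over noise, a score used as deposited. Spots whose signal does not rise above noise were deposited at their noise (107688 of 264096 gene spots). The series table deposited by the authors repeats the assay-normalized intensity within 0.06. The image analysis software is not given in the sources used here.

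Of 33012 gene probes, 4153 flagged at 5000 or above were left out. The log2 signal was quantile-normalized with no offset, and 16728 probes were tested with limma 3.58.1 in R 4.3.3 on all 8 arrays (4 residual and 1.96 prior degrees of freedom), two-sided, with Benjamini-Hochberg adjustment and a threshold of 0.05. SE is the moderated standard error. The fit was tested on simulated data. Names came from a RefSeq gene table of GRCm38.p6, which named 311 of 517 probes with a RefSeq accession. Named were the 3 genes, every gene of the fixed lists with a tested named probe, and the 3 nearest profiles of each gene. Tnfrsf13b, Ear1, Lst1 and Tnfsf13 lie outside this rule and were named after their values were seen. The genes and lists were chosen with earlier results of these data known. Alternatives covered normalization, signal column, offset, filters, samples fitted, variance trend, replicate block and leaving out each array. The number of arrays limits the precision.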

Additional observations from a re-analysis of the deposited data

Results flagged for a closer look

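The positive control spots, 129 per array, had their lowest median among the 6 arrays from knockouts, treated or not, on 3 days replicate 2. That median was 2.96 times that of the highest WT array. A signal in spots outside the gene probes thus separated the WT arrays from all arrays from knockouts. These spots were not used in the comparisons, and their part in the levels of Ccl21a, H2-Q8 and Bcl2a1b in WT was not tested.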

How the results depend on the processing

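Leaving out 1 array kept the direction of every member difference from KO and between treatments except as follows, and none passed the limma test under any alternative (adjusted p from 0.11 to 1). Bcl2a1b in 4 weeks minus KO ran from -0.20 to 0.73. Ccl21a in 4 weeks minus 3 days ran from -0.78 to 1, was -0.08 without 3 days replicate 1, and was -0.02 with the assay-normalized signal. Differences of all 3 genes from WT kept their direction. Median scaling gave 2.21, 1.45 and 1.91 for H2-Q8 in KO, 3 days and 4 weeks minus WT and 1.59 for Bcl2a1b in 3 days minus WT, and cyclic loess gave 0.72 and 0.75 for Ccl21a in 3 days and 4 weeks minus WT. Requiring detection on all arrays left Ccl21a and Bcl2a1b untested. The counts of probes past the threshold moved more, and the cause was not tested. For KO minus WT (189) the count was 303 with median scaling, 62 with cyclic loess, 341 with an offset of 50, 9 with no filter on dim probes, 663 with detection on all arrays, 911 with an intensity trend and 0 with only the groups compared. In the same order without loess, 3 days minus KO (39) gave 90, 131, 0, 626, 677 and 0, and 4 weeks minus KO (8) gave 43, 26, 0, 59, 118 and 3. The assay-normalized signal gave 3 and 2 for these. For 4 weeks minus 3 days (0) the count was 11 with median scaling, 16 with detection on all arrays and 47 with the trend. Leaving out 1 array gave 1 to 1080, 0 to 45, 0 to 17 and 0 for the 4 comparisons, with a lone array assumed to vary like the other groups. With the replicate number as a block the counts were 7, 0, 0 and 0. Same-numbered arrays did not deviate together (correlations of -0.04 to 0.03 over probes), so the numbers give no pairing, and the replicate block passed none of the 3 genes. Signal near the noise in WT limits the differences of Ccl21a and Bcl2a1b from WT.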

Other observations

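A further 19 immune genes with a named probe were listed from the gene names of the probes, and 13 of them were tested. In KO minus WT, 8 were higher and 5 lower (median 0.24, against 0.09 over all tested probes). There 3 of 13 had both KO arrays above both WT arrays, against 28.5% of all tested probes, and 1 had both below. In 3 days minus KO, 3 were higher and 9 lower, and the remaining gene rounded to no difference (median -0.49 against -0.03). There 6 of 13 had both 3 days arrays below both KO arrays, against 28.0% of all tested probes, and 1 had both above. In 4 weeks minus KO, 7 were higher and 6 lower (median 0.08 against 0.02). There 1 had both 4 weeks arrays below both KO arrays, against 21.6% of all tested probes, and 2 had both above. In 4 weeks minus 3 days, 11 were higher and 2 lower (median 0.38 against 0.03). There 7 had both 4 weeks arrays above both 3 days arrays, against 25.3% of all tested probes, and 1 had both below. None of the 13 passed the limma test in any of the 4 comparisons, with a smallest adjusted p of 0.13.

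Tnfsf13, picked after its values were seen, encodes the B cell survival cytokine APRIL. It read 9.74 and 10.21 in KO, 9.09 and 8.59 at 3 days, and 9.66 and 9.15 at 4 weeks, and 3 days minus KO was -1.14 ± 0.30 (limma adjusted p = 0.17). Its WT arrays, at 9.57 and 9.75, overlapped KO.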
